A study of Homo sapiens with 9 samples.

Results

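The genes followed here are 10 sensors and adaptors of nucleic acid, taken by their symbols from the 23207 named symbols of an RNA-seq experiment in CA46, an established human Burkitt lymphoma B cell line: the RNA helicases DDX58, IFIH1 and DHX58, their adaptor MAVS, the DNA sensor MB21D1 and its adaptor TMEM173, the Z-form sensor ZBP1, the endosomal receptors TLR7 and TLR9, and the kinase EIF2AK2. All 10 had a row of their own, and all 10 passed a filter on low values that kept 11184 genes. The 4 libraries were Myc shRNA with dimethyl succinate (DMS), Myc shRNA with PBS, non-targeting control shRNA (NTC) with DMS, and NTC shRNA with PBS. Cells carried the shRNA virus for 48 h and were exposed to 10 mM DMS or to PBS for 20 h before harvest, per the sample labels, whereas the design text names DMS with the 48 h of infection. DMS is a cell-permeable ester of succinate. The control libraries also carry a virus and an shRNA, so no uninfected cells enter any comparison. Each group is 1 library of 1 cell line, and the number of hairpins against MYC is not given in the sources used here. The 4 histone ChIP-seq samples and 1 input sample of the series were not analysed here.

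Cells detect viral or misplaced nucleic acid with a small set of receptors. RIG-I (gene DDX58) and MDA5 (IFIH1) are cytosolic helicases that bind double-stranded RNA and signal through MAVS on mitochondria, while LGP2 (DHX58) is a related helicase without signalling domains of its own. cGAS (MB21D1) binds double-stranded DNA and makes a cyclic dinucleotide that activates STING (TMEM173). Endosomal TLR7 and TLR9, which B cells use, recognise single-stranded RNA and unmethylated CpG DNA. PKR (EIF2AK2) answers double-stranded RNA by phosphorylating eIF2 alpha, and ZBP1 binds Z-form RNA or DNA and can start cell death. Many of these genes are themselves induced by interferon, through promoter elements bound by STAT and IRF factors.

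Levels are given in FPKM, a length-normalized measure of sequenced fragments, after rescaling the libraries to one another. Total counts were not used here. From the spacing of low values, 1 FPKM corresponded to between 22.6 and 25.7 fragments on each kilobase, so the lowest value of any sensor rested on an estimated 67.6 fragments per kilobase. MYC stood at 632 FPKM in Myc shRNA cells with DMS and 17.2 FPKM in Myc shRNA cells with PBS, against 1668 FPKM in NTC cells with DMS and 1888 FPKM in NTC cells with PBS. The library labelled Myc shRNA with DMS therefore held 37.9% of the MYC mRNA of its control, and that with PBS 0.913%. The cell type label held: MS4A1 and CD79A, which encode CD20 and a B cell receptor subunit, were at 158 FPKM or more in every library. Unnamed rows held 22.4% and 25.2% of all FPKM in Myc shRNA cells with DMS and PBS, and 14.3% and 15.7% in NTC cells with DMS and PBS. The part of these shares in the sensor values was not tested. With the values as deposited the median log2 ratio of all genes, Myc shRNA over NTC, was -0.10 in DMS and -0.13 in PBS, against -0.0048 in DMS and -0.0054 in PBS after rescaling, and all changes are given relative to the rescaled values.

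Sensor mRNA was higher in Myc shRNA than in control cells by more than 2-fold for 6 genes, and differed less for the other 4. DDX58, IFIH1, DHX58, ZBP1, TLR7 and EIF2AK2 were each at least 2-fold higher in Myc shRNA than in NTC cells, both in DMS and in PBS. Across all genes, 9.71% reached this in DMS and 14.4% in PBS. None of the 10 was 2-fold lower, against 3.56% of all genes in DMS and 17.0% in PBS. MAVS, MB21D1, TMEM173 and TLR9 stayed within 2-fold in both media. Over both media 7 of 10 rose and 0 of 10 fell by limma with Benjamini-Hochberg adjustment over all genes, where 27.9% of all genes rose and 27.8% fell. The median log2 fold change was 1.63 for the 10 genes and -0.0040 for all genes tested.

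Both Myc shRNA libraries lay above both NTC libraries for 9 of 10 members, all but MB21D1, against 42.2% of all genes. With 1 library per group, the fit takes virus and medium as additive terms and has 1 residual degree of freedom per gene. That residual is the part of the DMS response that differs between the viruses. Each SE and p-value rests on it and on a spread shared across genes (5.15 prior degrees of freedom), and not on replicates. Separate cultures are not stated, so a p-value here reflects nothing beyond how these 4 libraries vary. When the medium term was dropped together with 1 control library, 0 of 10 members and 0 genes in all passed by limma. Without the NTC library in DMS, 6 members and 3277 genes had an unadjusted p under 0.05, and without the NTC library in PBS, 6 members and 3574 genes.

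**Figure D1:**
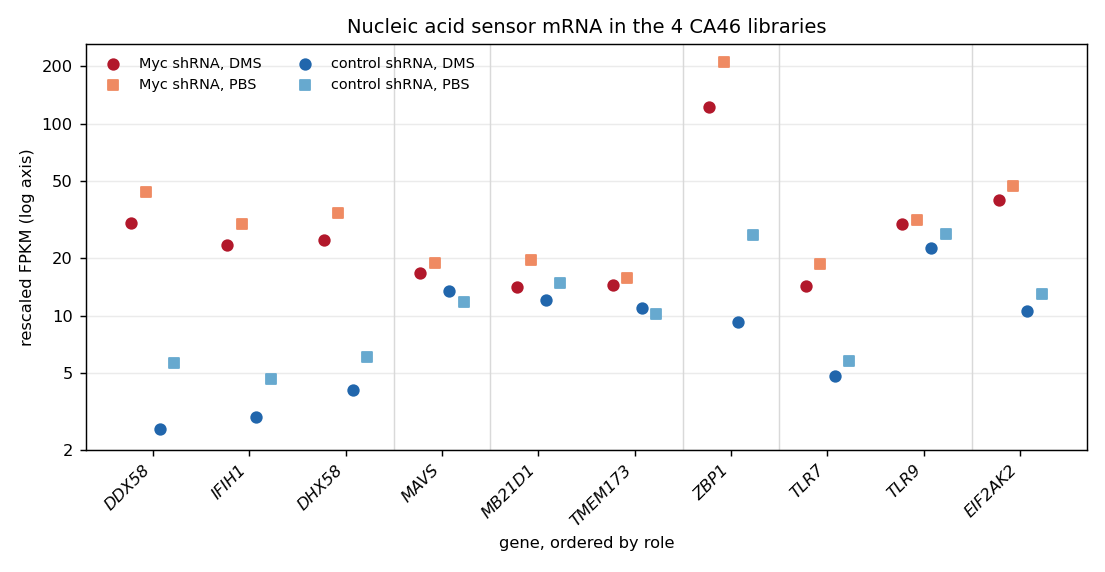
Rescaled FPKM on a log axis for each of the 10 genes, ordered by role, with 1 point per library (Myc shRNA with DMS, Myc shRNA with PBS, NTC shRNA with DMS, NTC shRNA with PBS). Both Myc shRNA points lie above both control points in 9 of the 10 genes, by a wide margin for the helicases, ZBP1, TLR7 and EIF2AK2; MB21D1 overlaps.

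The order of the 10 levels differed between the libraries. ZBP1 was the highest member in both Myc shRNA libraries, at 121 FPKM with DMS and 209 FPKM with PBS, and TLR9 was the highest in both NTC libraries, at 22.6 FPKM with DMS and 26.4 FPKM with PBS. The lowest members were MB21D1 in Myc shRNA cells with DMS (14.0 FPKM) and TMEM173 in Myc shRNA cells with PBS (15.8 FPKM). In the controls they were DDX58 with DMS (2.56 FPKM) and IFIH1 with PBS (4.66 FPKM). The 3 helicases thus stood at the bottom of the set in NTC cells with DMS and above the DNA sensing pair in Myc shRNA cells. The 10 genes summed to 329 and 468 FPKM in Myc shRNA cells with DMS and PBS, against 93.3 and 124.5 FPKM in NTC cells with DMS and PBS. ZBP1 supplied 36.9% and 44.5% of that sum in Myc shRNA cells with DMS and PBS, and 9.89% and 21.0% in NTC cells with DMS and PBS. Neighbours in the order lay close together: the levels of TLR7, TMEM173 and MB21D1 were between 14.0 and 14.4 FPKM in Myc shRNA cells with DMS, and without replicates their order there is not resolved. Ranked among all 11184 genes, DDX58 stood at the 74.6th and 82.6th percentile in Myc shRNA cells with DMS and PBS, and at the 14.9th and 31.1st in NTC cells with DMS and PBS. TLR9 moved little, between the 67.4th and 76.2nd percentile in all 4 libraries.

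The RNA helicases came from low control levels. DDX58 (chromosome 9, 32455300 to 32526322, hg19) was at 30.2 FPKM in Myc shRNA cells with DMS and 44.0 FPKM in Myc shRNA cells with PBS, against 2.56 FPKM in NTC cells with DMS and 5.67 FPKM in NTC cells with PBS. The knockdown libraries were 11.8-fold above control in DMS and 7.76-fold in PBS, and DDX58 rose over both media (limma log2 fold change 2.94, SE 0.17, adjusted p = 0.000642). IFIH1 (chromosome 2, 163123589 to 163175666) was at 23.4 and 30.1 FPKM in Myc shRNA cells with DMS and PBS, against 2.96 and 4.66 FPKM in NTC cells with DMS and PBS. It encodes MDA5, which prefers long double-stranded RNA, and it rose with a log2 fold change of 2.54 (SE 0.15, adjusted p = 0.000642 by limma). DHX58 (chromosome 17, 40253422 to 40264751), the gene of the regulatory helicase LGP2, was at 24.7 and 34.1 FPKM in Myc shRNA cells with DMS and PBS, against 4.08 and 6.08 FPKM in NTC cells with DMS and PBS. Its log2 fold change was 2.32 (SE 0.15, adjusted p = 0.000642 by limma). For all 3 helicases the lowest Myc shRNA library stood above the highest control library.

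MAVS, the mitochondrial adaptor that RIG-I and MDA5 share, differed far less than its receptors. MAVS (chromosome 20, 3827446 to 3856770) was at 16.6 and 18.8 FPKM in Myc shRNA cells with DMS and PBS, against 13.4 and 11.8 FPKM in NTC cells with DMS and PBS. Its log2 fold change over both media was 0.46 (SE 0.17) and did not pass (adjusted p = 0.0562 by limma). The balance of receptor to adaptor mRNA per length therefore differed between the libraries. DDX58 and IFIH1 together were 3.22 and 3.94 times the level of MAVS in Myc shRNA cells with DMS and PBS, against 0.411 and 0.876 times in NTC cells with DMS and PBS. The share of LGP2 went the other way, with DHX58 at 0.462 and 0.459 times the sum of DDX58 and IFIH1 in Myc shRNA cells with DMS and PBS and 0.739 and 0.588 times in NTC cells with DMS and PBS.

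Promoter sequence was read from RefSeq (GRCh38.p14) for the 5 members whose entries were matched by symbol: DDX58, listed there as RIGI, IFIH1, EIF2AK2, MAVS and TLR9. The remaining members are DHX58, MB21D1, TMEM173, ZBP1 and TLR7. Each window held 300 bases, 250 before the transcript start and 50 from it. The core of the interferon-stimulated response element was searched as a pair of GAAA with 2 bases of any kind between them and, in a wider form chosen after these promoters had been read, as GNAA and GAAA with the same gap, which includes every match to the narrower one, on both strands. The wider form was present in 3 of the 5 windows, DDX58, IFIH1 and EIF2AK2, and in 8.03% of 35116 RefSeq promoters. The narrower form was in IFIH1 and EIF2AK2, and in 3.57% of all promoters. It was not in DDX58, whose only match, GGAAACGAAA, is to the wider form. Since the wider form was chosen after these promoters had been read, its count of 3 is not a result about the members. The windows of MAVS and TLR9, which did not pass the test, held neither form. The 3 windows with a match are printed with that of MAVS for comparison, 5′ to 3′ along the gene, from 250 bases before the start to the 20th base of the transcript, with every match to the wider form in capitals, on either strand. They lie at chr9:32526177-32526446, minus strand, chr2:162318665-162318934, minus strand, chr2:37156961-37157230, minus strand, and chr20:3846584-3846853, plus strand.
DDX58: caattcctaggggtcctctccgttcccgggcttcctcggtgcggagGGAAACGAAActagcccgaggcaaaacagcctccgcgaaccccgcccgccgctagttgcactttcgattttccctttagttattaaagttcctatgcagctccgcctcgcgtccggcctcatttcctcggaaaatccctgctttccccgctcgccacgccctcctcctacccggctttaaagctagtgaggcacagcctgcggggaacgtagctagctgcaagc
IFIH1: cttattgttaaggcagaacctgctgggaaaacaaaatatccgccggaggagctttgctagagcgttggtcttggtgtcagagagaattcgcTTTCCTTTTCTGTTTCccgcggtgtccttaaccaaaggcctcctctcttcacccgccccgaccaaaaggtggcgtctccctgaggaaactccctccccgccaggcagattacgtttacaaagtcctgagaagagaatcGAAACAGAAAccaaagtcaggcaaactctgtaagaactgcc
EIF2AK2: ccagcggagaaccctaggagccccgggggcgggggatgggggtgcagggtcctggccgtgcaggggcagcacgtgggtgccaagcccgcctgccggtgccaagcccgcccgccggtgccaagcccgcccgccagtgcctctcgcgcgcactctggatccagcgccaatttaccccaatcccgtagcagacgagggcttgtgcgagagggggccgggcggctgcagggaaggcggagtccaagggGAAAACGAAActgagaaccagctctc
MAVS: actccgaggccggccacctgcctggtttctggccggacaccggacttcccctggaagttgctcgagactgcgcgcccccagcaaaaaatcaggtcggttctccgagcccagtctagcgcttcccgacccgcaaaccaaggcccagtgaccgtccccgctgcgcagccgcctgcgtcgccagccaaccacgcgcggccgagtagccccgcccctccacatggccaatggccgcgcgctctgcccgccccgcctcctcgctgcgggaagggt
The match in DDX58 begins 204 bases before the start, and that in EIF2AK2 6 bases before it and runs over the start. IFIH1 holds 3 matches, a pair on the opposite strand from 159 and 153 bases before the start, which overlap in the capitals, and another 21 bases before it.

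**Figure D2:**
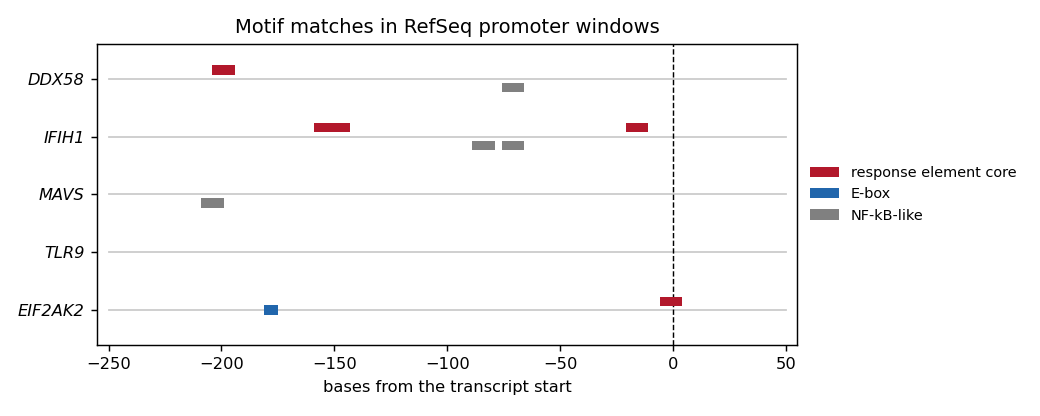
Positions of motif matches, in bases from the transcript start (dashed line), in the 5 RefSeq promoter windows. Red marks the wider form of the response element core, blue the E-box and grey the NF-kB-like pattern, on either strand. The wider form, chosen after these promoters had been read, appears in DDX58, IFIH1 and EIF2AK2 and not in MAVS or TLR9. The narrower form is in IFIH1 and EIF2AK2 only.

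The E-box CACGTG, the sequence that MYC with MAX can bind, was found only in EIF2AK2 among the 5 windows, 181 bases before the start, and in 7.26% of all promoters. The loose NF-kB-like pattern, GGG and CC with 5 bases of any kind between them, occurred in DDX58, IFIH1 and MAVS, and in 58.7% of all promoters. These are matches of letters, and no binding was measured here.

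ZBP1 had the highest ratios of the set. ZBP1 (chromosome 20, 56178772 to 56195764) was at 121 FPKM in Myc shRNA cells with DMS and 209 FPKM in Myc shRNA cells with PBS, against 9.22 FPKM in NTC cells with DMS and 26.1 FPKM in NTC cells with PBS. The fold over control was 13.2 in DMS and 7.98 in PBS, and it rose over both media (limma log2 fold change 3.26, SE 0.22, adjusted p = 0.000642). The mRNAs of proteins linked to ZBP1 and cell death, effectors and others, were read beside it. RIPK3, the kinase that ZBP1 engages directly, was at 0.081 and 0.0204 FPKM in Myc shRNA cells with DMS and PBS and listed at 0 in both NTC libraries. MLKL, the pore-forming effector below RIPK3, was at 1.60 and 0.992 FPKM in Myc shRNA cells with DMS and PBS, against 0.559 and 0.777 FPKM in NTC cells with DMS and PBS, under the filter. Of the 9 listed genes 6 passed the filter and 4 rose, where 27.9% of all genes rose and 27.8% fell. Those that rose were the inhibitor of caspase 8 CFLAR (log2 fold change 1.67), the kinase RIPK1 (1.31), CASP8 (1.12) and the RNA-editing enzyme ADAR (0.87). The list mixes effectors with an inhibitor, so this is not a count of death effectors. The other two, FADD (-0.37) and CASP6 (-0.08), did not pass.

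EIF2AK2, the gene of PKR (chromosome 2, 37311594 to 37384787), was at 39.8 and 47.4 FPKM in Myc shRNA cells with DMS and PBS, against 10.6 and 12.9 FPKM in NTC cells with DMS and PBS. It rose with a log2 fold change of 1.81 (SE 0.16, adjusted p = 0.000995 by limma), at 3.76-fold over control in DMS and 3.67-fold in PBS. Its locus overlaps that of GPATCH11, which was at 10.8 and 14.6 FPKM in Myc shRNA cells with DMS and PBS and 8.51 and 12.4 FPKM in NTC cells with DMS and PBS. The strand setting of the counting is not given, so reads from the overlap cannot be assigned. None of the other kinases of the same site rose, and EIF2AK1 (-0.36) and EIF2AK3 (0.36) did not pass. EIF2S1, which encodes eIF2 alpha, fell (log2 fold change -0.99), as did the exchange factor subunit EIF2B3 (-1.36). The amino acid sensing kinase EIF2AK4 fell as well (-0.66), but this call held in only 5 of 10 alternatives, and its log2 fold change was -0.16 without the Myc shRNA library in PBS. Of the 16 genes in the list of eIF2 alpha kinases and partners, all past the filter, 6 fell and 1 rose. Across all genes 27.8% fell and 27.9% rose. The 1 that rose was PPP1R15A (0.93), the stress-induced subunit of the eIF2 alpha phosphatase. PRKRA, the gene of the PKR activator PACT, fell as well (-0.78).

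The endosomal receptors parted from each other. TLR7 (X chromosome, 12884696 to 12910893), the receptor for single-stranded RNA, was at 14.3 and 18.5 FPKM in Myc shRNA cells with DMS and PBS, against 4.82 and 5.79 FPKM in NTC cells with DMS and PBS. It rose (limma log2 fold change 1.46, SE 0.15, adjusted p = 0.00124), at 2.97-fold over control in DMS and 3.19-fold in PBS. TLR9 (chromosome 3, 52255096 to 52260179), the receptor for CpG DNA, was at 29.9 and 31.5 FPKM in Myc shRNA cells with DMS and PBS, against 22.6 and 26.4 FPKM in NTC cells with DMS and PBS, and did not pass (limma log2 fold change 0.32, SE 0.17, adjusted p = 0.154). The level of TLR7 was 0.478 and 0.587 times that of TLR9 in Myc shRNA cells with DMS and PBS, and 0.214 and 0.219 times in NTC cells with DMS and PBS. The other endosomal receptors were barely detected: TLR3 and TLR8 stayed at or below 0.0242 FPKM in every library. Among trafficking genes, UNC93B1, which escorts TLR7 and TLR9 to endosomes, rose (1.00), as did the protease CTSS (1.23), which can cleave these receptors, and the endolysosomal transporter SLC15A4 (1.00). Of 20 listed trafficking genes 19 passed the filter, 7 rose and 0 fell, where 27.9% of all genes rose and 27.8% fell.

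MB21D1 and TMEM173, which act together on cytosolic DNA, differed by less than 2-fold. MB21D1, the gene of cGAS (chromosome 6, 74132731 to 74163286), was at 14.0 and 19.4 FPKM in Myc shRNA cells with DMS and PBS, against 12.1 and 14.8 FPKM in NTC cells with DMS and PBS. The Myc shRNA library with DMS lay below the NTC library with PBS, so its groups overlap, and it did not pass (limma log2 fold change 0.28, SE 0.16, adjusted p = 0.170). TMEM173, the gene of STING (chromosome 5, 138855113 to 138862673), was at 14.4 and 15.8 FPKM in Myc shRNA cells with DMS and PBS, against 11.0 and 10.2 FPKM in NTC cells with DMS and PBS. It rose by little, 1.31-fold in DMS and 1.55-fold in PBS (limma log2 fold change 0.47, SE 0.16, adjusted p = 0.0420). This call held in only 5 of 10 alternatives. It was lost with the values as deposited, without the filter and when either NTC library was left out, among others. The DNA-binding relatives of the AIM2 and IFI16 family varied over a wider range. AIM2, which forms an inflammasome on DNA, was at 6.48 and 11.0 FPKM in Myc shRNA cells with DMS and PBS, against 0.813 and 1.79 FPKM in NTC cells with DMS and PBS, and rose (2.07). IFI16 rose too (0.91), with 123 and 159 FPKM in Myc shRNA cells with DMS and PBS against 61.5 and 88.7 FPKM in NTC cells with DMS and PBS, where it stood above every member. SLC19A1, the folate carrier that can also import cyclic dinucleotides, fell (log2 fold change -2.20), with 13.1 and 2.85 FPKM in Myc shRNA cells with DMS and PBS against 32.7 and 32.8 FPKM in NTC cells with DMS and PBS.

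DMS was the other factor of the design, which asked whether succinate raises promoter H3K4me3 in MYC-depleted cells, and these RNA libraries came from the same samples. In both viruses the helicases, MB21D1, ZBP1, TLR7, TLR9 and EIF2AK2 were lower with DMS than with PBS. The test over both viruses called 0 of 10 members and 0 of 11184 genes, 0.0% (limma, Benjamini-Hochberg), with 4 members and 1436 genes at an unadjusted p under 0.05. Of the 10 members 8 were lower with DMS in both viruses, against 34.8% of all genes. On the log2(FPKM + 1) scale ZBP1 in NTC cells was the only member to reach 2-fold, with an FPKM at 0.353 of its PBS level, in a comparison where 0.411% of all genes were at least 2-fold lower. It was at 0.582 of its PBS level in Myc shRNA cells, where 0 of 10 members and 0.456% of all genes were 2-fold lower, and its log2 fold change for DMS was -1.09 (SE 0.22, adjusted p = 0.240 by limma). The FPKM of DDX58 was at 0.685 of its PBS level in Myc shRNA cells and 0.452 in NTC cells, which is past 2-fold as a plain ratio and with a pseudocount of 0.1 but not with 1 (limma log2 fold change -0.72, SE 0.17, adjusted p = 0.267). IFIH1 and DHX58 had log2 fold changes of -0.43 and -0.46 for DMS. No member was 2-fold higher with DMS in either virus, against 4.99% of all genes in Myc shRNA cells and 0.0805% in NTC cells.

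**Figure D3:**
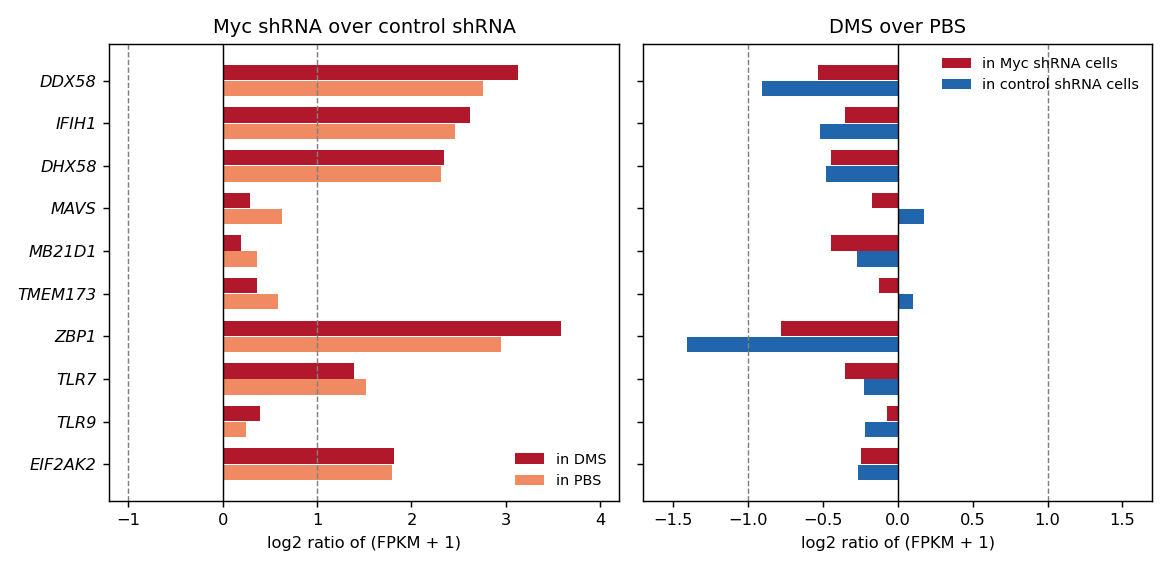
Log2 ratios of (FPKM + 1) for the 10 genes, Myc shRNA over control shRNA in DMS and in PBS (left) and DMS over PBS in Myc shRNA and control shRNA cells (right); each bar is the ratio of 2 libraries, and dashed lines mark 2-fold. On the left panel 6 genes pass the 2-fold line in both media, and ZBP1 in control cells is the only bar past the line on the right panel, on this scale.

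In Myc shRNA cells MYC itself was 36.7-fold higher with DMS than with PBS, while the 10 members lay between 0.582 and 0.949 of their PBS level. In NTC cells, where MYC with DMS was at 0.884 of its PBS level, they lay between 0.353 and 1.14. The knockdown ratio was higher in DMS than in PBS for 6 of 10 members, near the 54.5% of all genes. The difference of the log2 ratios was 0.63 for ZBP1 and 0.38 for DDX58, and between -0.34 and 0.16 for the other 8 members. No residual degree of freedom is left to test these differences.

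Other genes of the sensing pathways were read from lists, and the members stood among sensors that rose and relay genes that moved less. Of 22 other nucleic acid sensors, 20 passed the filter, 13 rose and 3 fell, where 27.9% of all genes rose and 27.8% fell. Those that rose most were IFIT1, which binds RNA lacking cap methylation (log2 fold change 3.26), OASL (3.18), OAS1 (2.92), which binds double-stranded RNA, MNDA (2.90) and DDX60 (2.87). Those that fell, PRKDC (-1.09), XRCC6 (-1.05) and DHX9 (-0.91), encode 2 subunits of the DNA-dependent kinase complex and an RNA helicase. Between receptors and interferon genes, 12 of the 22 relay genes past the filter rose and 1 fell, beside the same shares of all genes. IRF7, the factor that amplifies interferon gene transcription, was at 156 and 234 FPKM in Myc shRNA cells with DMS and PBS, against 15.6 and 31.5 FPKM in NTC cells with DMS and PBS, and rose (3.05). MYD88, the adaptor of TLR7 and TLR9, rose (1.55), as did IRAK4 (1.35) and the TBK1 scaffold TANK (1.45). The kinase TBK1 itself rose by 0.49, and IRF3, its substrate, was at a log2 fold change of 0.38 and did not pass (adjusted p = 0.121 by limma).

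Positive and negative regulators moved in both directions, against 27.9% of all genes that rose and 27.8% that fell. Of 16 cofactors and activating ligases 4 rose and 4 fell, near those shares of all genes: TRIM25, a ubiquitin ligase linked to RIG-I, rose (1.00), and so did TRIM56 (1.19), while TRIM65, a ligase for MDA5, fell (-0.99), and so did HMGB1 (-1.14). Of 21 brakes 9 rose and 4 fell, with the deubiquitinases TNFAIP3 (2.50) and CYLD (1.53) and the ubiquitin ligase TRIM21 (1.56) among those that rose. In the list of clearance and editing genes 15 of 19 passed the filter, 5 rose and 4 fell, also near the shares of all genes. SAMHD1, which depletes nucleotides, rose (1.20), whereas RNASEH2A (-1.15) and the mitochondrial RNA helicase SUPV3L1 (-1.39) fell.

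**Figure D4:**
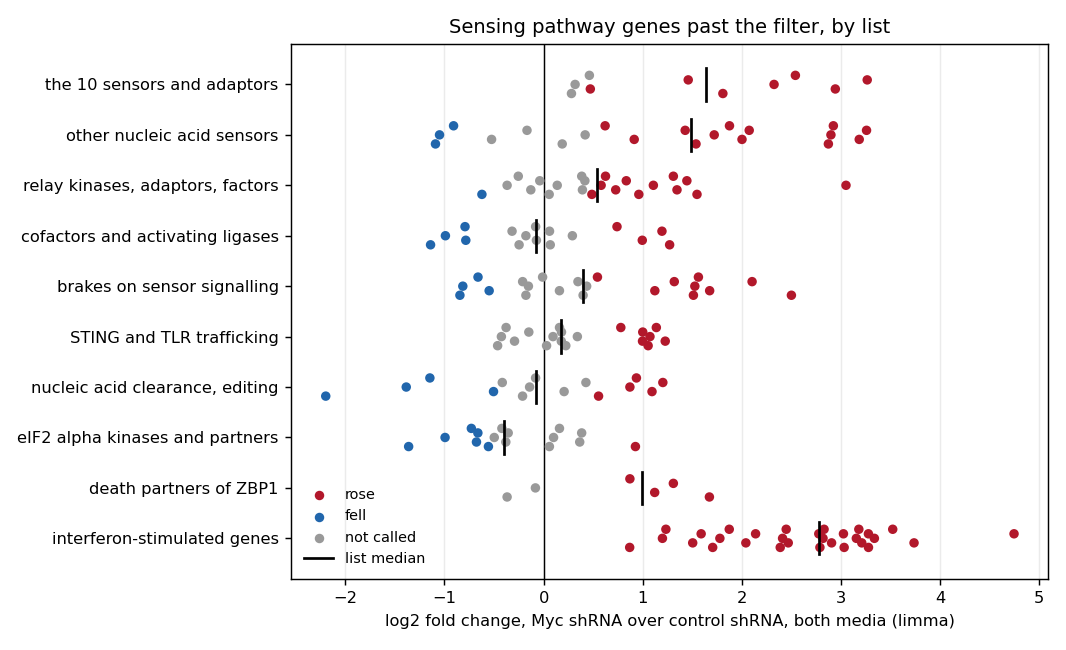
Log2 fold changes of Myc shRNA over control shRNA over both media (limma) for the genes past the filter in each list, 1 point per gene; red points rose, blue points fell, grey points did not pass, and black bars are list medians. The medians lie at 1.63 for the 10 genes, 1.48 for other sensors, 0.53 for relay genes and 2.78 for interferon-stimulated genes.

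Interferon ligands were almost undetected while interferon-stimulated genes were high. Of 21 interferon ligand genes 17 were listed at 0 in every library and none passed the filter. IFNB1 was listed at 0 in 3 libraries and at 0.160 FPKM in NTC cells with DMS. IFNA2 was the highest, at 0.620 and 1.60 FPKM in Myc shRNA cells with DMS and PBS, against 0.138 and 0.114 FPKM in NTC cells with DMS and PBS. The other two above 0, IFNA13 and IFNW1, were at 0.160 FPKM or less. Of 32 interferon-stimulated features, 30 passed the filter and 30 rose, against 27.9% of all genes, with a median log2 fold change of 2.78. They include STAT2 (2.45) and IRF9 (1.78), subunits of a complex that binds the response element.

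Genes whose profile over the 4 libraries lay nearest to each member were sought among 8342 other genes averaging 5 FPKM or more, by the Euclidean distance of centred log2(FPKM + 1). The nearest to DDX58 were OAS1 (distance 0.057), the joint row of FBXO39 and XAF1, and IFIT3. ZBP1 had no close match, its nearest being IFI35 (0.18), IFIT1 (0.25) and ITGAM (0.28). IFIH1 lay next to FCGR2C (0.072) and STAT2 (0.13), DHX58 next to ABTB1 (0.057) and TRIM22 (0.099), and EIF2AK2 next to VPREB3 (0.066), SP100 (0.078) and OAS2 (0.092). TLR7 was nearest to TANK (0.043) and RSRP1 (0.048). The members that differed little had near neighbours with equally flat profiles, PRR14 for MAVS (0.039), PRKAB1 for MB21D1 (0.025), ITGB1 for TMEM173 (0.020) and HARS2 for TLR9 (0.047). A distance over 4 libraries describes these libraries alone.

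Markers of other cell types were read beside the sensors, since ZBP1, TLR7 and TLR9 are also used by myeloid and plasmacytoid dendritic cells. Of 9 myeloid markers 3 passed the filter and all 3 rose: ITGAM (log2 fold change 3.11), LYZ (2.57) and CD68 (2.54). CD14 and CSF1R were at most 0.221 FPKM in any library, and S100A8, S100A9, FCGR3A and MPO were listed at 0 in all 4. The myeloid list summed to 108 and 176 FPKM in Myc shRNA cells with DMS and PBS, against 12.3 and 26.2 FPKM in NTC cells with DMS and PBS. Of 8 plasmacytoid markers 4 passed the filter, 2 rose and 0 fell. Those that rose were TCF4 (1.38) and SPIB (1.37), which B cells also express. CLEC4C was at 3.35 and 3.41 FPKM in Myc shRNA cells with DMS and PBS, against 3.95 and 4.94 FPKM in NTC cells with DMS and PBS, and PTCRA was at 9.45 and 9.05 FPKM in Myc shRNA cells with DMS and PBS, against 7.53 and 6.46 FPKM in NTC cells with DMS and PBS. Neither passed the test. IL3RA was listed at 0 in all 4 libraries and LILRA4 was at most 0.0578 FPKM. The plasmacytoid list summed to 317.5 and 410.5 FPKM in Myc shRNA cells with DMS and PBS, against 132 and 158 FPKM in NTC cells with DMS and PBS. All 8 B cell markers rose, against 27.9% of all genes. Of 6 T cell markers 3 passed the filter and 1 rose, CD2, where 27.9% of all genes rose. CD2 was at 1.52 FPKM with DMS and 1.80 FPKM with PBS in Myc shRNA cells. In NTC cells with DMS and PBS it was at 0.189 and 0.546 FPKM. Its mean of 1.01 FPKM passed the filter only through the Myc shRNA values, so the filter favoured a rise. Of 4 NK cell and 4 epithelial markers 1 each passed, of which the epithelial one fell. The part of a shift in cell state or cell mixture in the sensor values was not tested, and in bulk RNA fewer cells of a type and less RNA per cell cannot be told apart.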

How the data were processed

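RNA-seq of 4 CA46 libraries was analysed, 1 per group. The authors deposited FPKM per gene, and the submitters' processing notes name fastp, TopHat2 2.1.0, Cuffdiff 2.2.1 and build hg19; the strand setting is not given in the sources used here, and total counts were not used. Of 31016 rows, 3919 without a gene name, 30 with names that look like dates and 2001 small RNA symbols were left out. The 4 libraries were brought to one scale with trimmed mean factors (30% of ratios and 5% of levels trimmed) over genes averaging 1 FPKM or more, namely of 0.952, 0.943, 1.03 and 1.04 for Myc shRNA with DMS, Myc shRNA with PBS, NTC with DMS and NTC with PBS. Fold changes from limma 3.58.1 (R 4.3.3) and all log2 ratios are on the log2(FPKM + 1) scale, which understates changes of low genes; plain folds are ratios of FPKM. Genes averaging 1 FPKM or more were tested with virus and medium as terms, a trend, and Benjamini-Hochberg adjustment over 11184 genes at 0.05. Pairs of libraries have no test, and 2-fold on that scale was counted. The Myc shRNA effect was also simulated for 11184 genes. Calls were made for 1.49% of 67 genes with a simulated log2 change of 0.5, for 52.2% of 67 with 1 and for 100% of 66 with 2. All other genes were simulated without a change, and 8 of them were called. The simulation gave 110 calls in all, changed and unchanged genes together, against 3115 that rose and 3111 that fell in the data. The adjustment is stricter when few genes change, so these shares do not measure recovery in the data. Locus starts are counted from 1.

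The members and lists were chosen with earlier results of these data known. Named were all members, MYC, up to 6 genes per list with the largest ratios in PBS, direct partners of members, detected interferon ligands and the 3 nearest profiles per member. Named outside this rule, after their values were seen, were IFI16, EIF2AK1, EIF2AK3, TLR3, TLR8, IRF3, IRF9, MLKL, PRKRA, TBK1, DHX9, PRKDC, XRCC6 and the markers at or near 0. Some genes that the rule names are not reported here. Alternatives were the deposited scaling, a pseudocount of 0.1, no filter, joined rows left out, other model terms, no trend, and each library left out. Groups hold 1 library each, so no replicate numbers pair them.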

Additional observations from a re-analysis of the deposited data

Results flagged for a closer look

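For several genes the DMS over PBS ratio had opposite signs in Myc shRNA and NTC cells. This difference was not tested in any case, since each value rests on 1 library per group. Among the members, the log2 ratio of DMS over PBS for MAVS was -0.17 in Myc shRNA cells and 0.17 in NTC cells, a difference of -0.34. For TMEM173 it was -0.12 in Myc shRNA cells and 0.10 in NTC cells, a difference of -0.22. These 2 adaptors are the members that were not lower with DMS in both viruses. MYC differed most, at 5.12 in Myc shRNA cells and -0.18 in NTC cells, a difference of 5.30.

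The same differences, Myc shRNA minus NTC cells, were positive for genes that fell after MYC knockdown: SLC19A1 (1.87), SUPV3L1 (1.07), EIF2S1 (0.70), HMGB1 (0.70), G3BP1 (0.57) and RNASEH2A (0.52). FADD, which did not pass the knockdown test, had 0.36. CASP8 and DUSP5, which rose after knockdown, had differences of -0.35 and -0.33. For CASP6 the log2 ratio of Myc shRNA over NTC was 0.02 in DMS and -0.19 in PBS, a difference of 0.21. Each difference equals the knockdown log2 ratio in DMS minus that in PBS, and list genes were named by a large ratio in PBS. Their signs are therefore favoured by the choice of genes and are not a result about DMS. Genes whose DMS ratio had the same sign in both viruses, such as EIF2B3 (0.78), are left out. SLC19A1 in NTC cells was at -0.0016, almost no change.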

How the results depend on the processing

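The count of members that rose after MYC knockdown was 7, and 6 or 7 under the deposited scaling, pseudocount 0.1, no filter, joined rows left out, no trend and no medium term. TMEM173 was the member not called under the deposited scaling and without the filter. Leaving out 1 library each, without the medium term, gave 0 to 9 members and 0 to 3557 genes that rose, and 0 to 3744 genes and 0 members that fell. The 0 came without either NTC library, by limma. The adjusted p of DDX58 ranged from 0.000331 to 0.142 over all alternatives and that of TMEM173 from 0.0175 to 0.323. Without the filter 1489 genes fell, against 3111. Under the deposited scaling 674 genes were 2-fold lower in Myc shRNA than in NTC cells in DMS, against 398. With pseudocount 0.1, 97 genes were 2-fold lower with DMS in Myc shRNA cells, and in NTC cells 45 were higher and 135 lower, with 2 members among the lower. The DMS effect on MAVS turned to -0.000658 under the deposited scaling, and the knockdown effect on CASP6 to 0.152 without the Myc shRNA library in PBS and 0.0489 without the NTC library in DMS, and the cause was not tested. No paired analysis was possible because each group holds 1 library. In simulated data, where far fewer genes were changed than were called here, an effect of 0.5 on the log2 scale was rarely recovered. That share does not measure recovery in these data, where TMEM173 (0.47) and TBK1 (0.49) were called. The members that did not pass are still not shown to be unchanged, since the fit has 1 residual degree of freedom per gene.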
